A study of Mus musculus with 15 samples.

Results

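The third replicates of all 5 LL2 cell lines were compared with the first and second replicates of the same lines. The samples set apart were the 5 columns whose label ends in replicate 3, of 15 samples in all, and the other 10 were replicates 1 and 2. This split was chosen by measured values of these data, since earlier results had shown that samples differed by number, so the differences between the numbers are given as a description and carry no test. What a replicate number stood for, such as a day, a passage or a plating, is not documented.

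LL2, also called Lewis lung carcinoma, is a mouse lung cancer cell line, and the LL2/Luc2 cells used here were grown in DMEM with fetal bovine serum. LL2 WT was the parental line, *KEAP1* KO #1, #2 and #3 were 3 CRISPR clones aimed at *Keap1*, and *NRF2* KO was 1 CRISPR clone aimed at *Nfe2l2*, so each knockout line descended from 1 cell. Each line gave 3 samples, described as biologic triplicates, from cultures that had been diluted after reaching confluence and had regrown for about a day. Nothing states that equal numbers were handled together. The level of *Keap1* was 21.6 to 24.8 CPM in LL2 WT and *NRF2* KO and 3.78 to 12.5 CPM in the *KEAP1* KO clones, whereas *Nfe2l2* was 102 to 146 CPM in *NRF2* KO, 87 to 124 CPM in the *KEAP1* KO clones and 170 to 208 CPM in LL2 WT.

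The values were CPM, counts scaled to a fixed total per sample, so they show shares of the messenger RNA of a dish. In such bulk samples, fewer cells of a type and less RNA per cell cannot be told apart. Number of genes above 0 was 17270 to 19750 per sample, the 10 highest genes took 7.31% to 9.58% of a sample, and genes of the mitochondrial genome 2.45% to 5.06%. Summed markers of other cell types were low in both sets. The 12 immune markers summed to 3.3 to 15.9 CPM in replicates 1 and 2 and 5.55 to 37.6 CPM in replicate 3, mostly *Cd68*, which was 1.00 ± 0.12 (log2, SE) higher, with *Adgre1* and *Tyrobp* at 0 throughout. The 8 endothelial markers summed to 20.1 to 34.4 and 20.5 to 40.8 CPM with *Emcn* at 0, the 9 fibroblast markers to 3.59 to 19.4 and 6.02 to 21.9 CPM, and the 6 erythroid markers to 0.415 to 1.58 and 0.362 to 2.74 CPM with *Hbb-bs* at 0. Of the labelled lung cancer origin, the 10 lung epithelial markers reached 1.72 to 18.3 CPM in replicates 1 and 2 and 4.03 to 17.2 CPM in replicate 3, with *Sftpa1*, *Sftpd* and *Scgb1a1* at 0. The 10 epithelial markers summed to 301 to 661 and 441 to 669 CPM with *Esrp1* at 0, and the 10 mesenchymal markers to 2840 to 7790 and 3690 to 7800 CPM. The part of these markers in the differences between replicates was not tested.

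Several gene programs follow how crowded or well fed cultured cells are. When oxygen is scarce, the factor HIF-1 escapes degradation and raises genes for glucose uptake, lactate export, mitochondrial clearance and new vessels. Growth signals raise immediate early genes such as *Fos* and *Egr1* within minutes, and growing cells keep high levels of the genes that build ribosomes and copy DNA, in part through MYC. FOXO factors and MondoA raise a set of genes, *Txnip* among them, that respond to nutrients and to low insulin signalling.

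In each of the 5 lines, replicate 3 stood on one side of replicates 1 and 2. After the mean of its line was taken from each sample, the first principal component held 43.7% of the remaining variance over 11676 genes with a mean of at least 1 CPM, and the second held 10.8%. On the first component replicate 3 scored 39.4 in LL2 WT and 39.1 in *NRF2* KO, while *KEAP1* KO #1, #2 and #3 scored 23, 28.8 and 34.1. The other 10 samples all scored below 0, from −36 in LL2 WT replicate 2 to −2.2 in *KEAP1* KO #1 replicate 1. Replicates 1 and 2 were far apart in LL2 WT (−3.46 and −36) and close in *KEAP1* KO #2 (−13.6 and −15.2) and *KEAP1* KO #3 (−19.6 and −14.6). The shift of replicate 3, its log2 level minus the mean of replicates 1 and 2, had a Pearson's r across the same 11676 genes of 0.422 to 0.631 between the 10 pairs of lines, with a median of 0.461. The highest r joined LL2 WT and *NRF2* KO, and genes are not independent replicates.

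**Figure D1:**
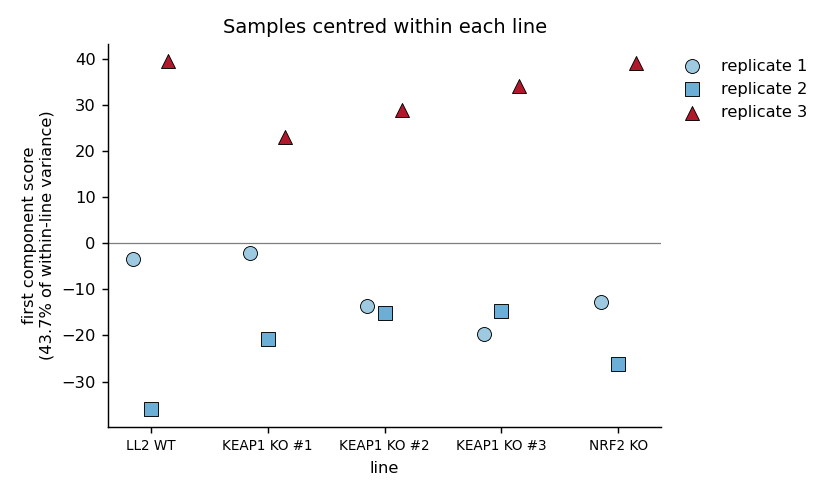
Score of each of the 15 samples on the first principal component (vertical axis, 43.7% of the variance within lines) for the 5 lines on the horizontal axis, with 1 marker per replicate number. Replicate 3 sits at 23 to 39.4 in every line, and replicates 1 and 2 sit at −36 to −2.2.

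In the deposited values, many more genes were higher than lower in replicate 3. Below, a gene is called where limma's model with line as a factor gave an adjusted p under 0.05 and a difference over 1 on the log2(CPM + 0.1) scale. Of 14652 genes tested, 591 were called higher (4.03%) and 40 were called lower (0.273%). With adjusted p alone, 4485 (30.6%) were higher and 2211 (15.1%) lower. All these shares came from the contrast that set the samples apart, so nothing is read from them, and they are the background for the counts of members below. Of the called genes, 425 of the 591 and 17 of the 40 had replicate 3 beyond both other replicates in all 5 lines. Over all genes tested replicate 3 was the highest of the 3 samples in all 5 lines for 3008 genes (20.5%) and the lowest for 1493.

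The scaling bore on how many genes were lower. The median difference over all genes was 0.13 on the log2 scale in the deposited values, 0.05 after rescaling by median ratios and −0.02 after quantile normalization, and single differences are best read against it. Higher genes made up 93.7% of the calls in the deposited values, 89% after rescaling (479 higher and 59 lower) and 66.5% after quantile normalization (250 and 126). By adjusted p alone the share was 67%, 52% and 47.5%. Predicted or clone names made up 20.1% of the genes called higher and 15.1% of those tested. At the edge of the filter, *Gm8607* entered with 3.0014 CPM summed over the 15 samples and *Fabp3-ps1* was left out with 2.9996.

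**Figure D2:**
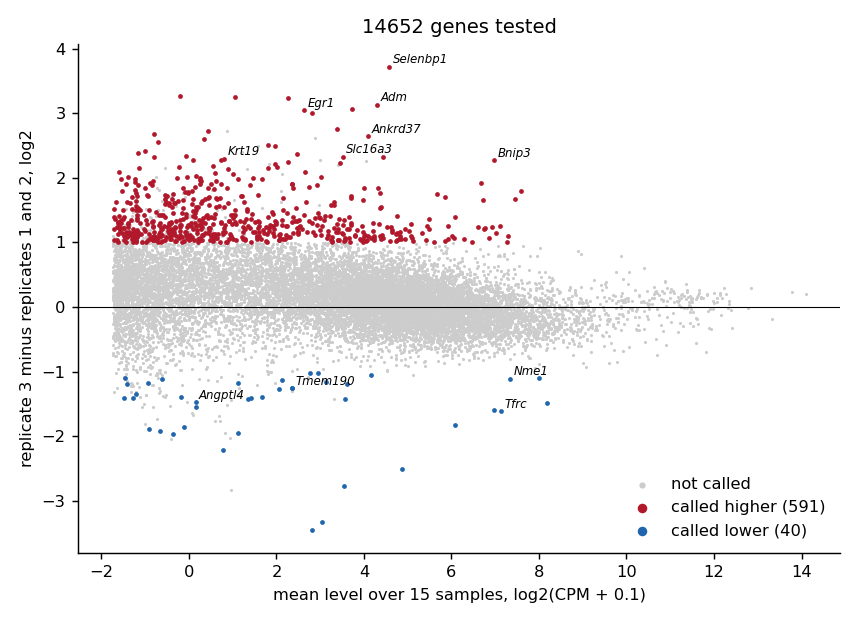
Difference of each of the 14652 genes tested between replicate 3 and replicates 1 and 2 (vertical axis, log2) against its mean level over the 15 samples (horizontal axis, log2(CPM + 0.1)). Red points are the 591 genes called higher and blue points the 40 called lower, with most red points at low to middle levels and with names on some of the genes described.

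The HIF-1 targets were the list with the highest median difference of those described here. Of 20 tested, 13 were called higher and 0 lower, 17 were higher by adjusted p alone, and their median was 1.16 against 0.13 over all genes. After rescaling 11 of the 20 were called higher, and after quantile normalization 13. Each line gave a median above 0, at 1.27 in LL2 WT, 1.92 in *NRF2* KO and 1.04, 0.80 and 1.17 in turn for *KEAP1* KO #1, #2 and #3. In 18 of the 20, replicate 3 was above both others in all 5 lines.

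*Adm* encodes adrenomedullin, a secreted peptide that widens blood vessels. Its level in replicates 1 and 2 was 0.655 to 43.5 CPM (median 1.4), and in replicate 3 LL2 WT held 116 CPM, *NRF2* KO 51.9 CPM and the *KEAP1* KO clones in order 27.5, 7.91 and 8.97 CPM. Within each line replicate 3 was the highest, by 2.33 (log2) in LL2 WT up to 4.19 in *NRF2* KO, while the ranges over lines overlapped: replicates 1 and 2 of LL2 WT and replicate 1 of *NRF2* KO (10.7 CPM) were above replicate 3 of *KEAP1* KO #2 and #3. The difference was 3.13 ± 0.56 (log2, SE), or 8.76-fold.

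*Bnip3*, which marks mitochondria for removal, was among the more abundant of the list. Levels in replicates 1, 2 and 3 were 221, 72.9 and 366 CPM in LL2 WT and 79.5, 28.5 and 300 CPM for *NRF2* KO. The *KEAP1* KO clones in order had 75.2, 26 and 217 CPM, 27.6, 28.4 and 129 CPM, and 37.4, 33.7 and 228 CPM. Replicate 3 was the highest in every line, and replicate 1 stood well above replicate 2 in LL2 WT, *KEAP1* KO #1 and *NRF2* KO. The difference was 2.27 ± 0.32 (log2). Of its stretches of 31 bases, 57% also occur in transcripts of other genes, mostly *AC160336.1*, so reads could be split between them.

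*Pdk1*, a kinase that holds pyruvate back from oxidation in the mitochondrion, was at 22.5 to 204 CPM in replicates 1 and 2 (median 37.3). Replicate 3 held 347 CPM in LL2 WT, 253 CPM for *NRF2* KO, and 131, 92.5 and 129 CPM for the *KEAP1* KO clones in order. It was 1.92 ± 0.22 higher (log2), and above both others in all 5 lines. *Ankrd37*, a known HIF-1 target of unclear role, was at 1.47 to 24.5 CPM in replicates 1 and 2 (median 3.92) and at 94.7, 18.5, 11.3, 18.5 and 48.9 CPM in replicate 3 of LL2 WT, the *KEAP1* KO clones in order and *NRF2* KO. Its difference was 2.64 ± 0.36.

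Further members, named after their values were seen, gave the spread within the list. *Vegfa*, the vessel growth factor, was at 30.3 to 104 CPM in replicates 1 and 2 and at 122 to 180 CPM in replicate 3, so the sets did not overlap, and it was 1.23 ± 0.17 higher. *P4ha2* (1.85), *Ero1a* (1.79), *Egln3* (1.67), *Ndrg1* (1.39), *Bnip3l* (1.26) and *Egln1* (1.1) were also called. *Car9*, a carbonic anhydrase at the cell surface, is often used as a mark of low oxygen, and it was not called (0.96 ± 0.40). It was above both others in 3 lines, at 8.58, 3.77 and 1.97 CPM in replicate 3 of LL2 WT, *KEAP1* KO #1 and *KEAP1* KO #3, and below 1 or both of them in the other lines, at 1.1 CPM for *KEAP1* KO #2 and 1.79 CPM for *NRF2* KO. The members least far from 0 were *Slc2a3* (0.36), *Gbe1* (0.51) and *Higd1a* (0.62).

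The 250 bases upstream of the annotated start are shown for *Bnip3* and *Ankrd37*, and for *Slc16a3* of the next list, because these genes are among the highest rises and their windows hold the core of the motif that HIF-1 binds. The sequences are from RefSeq on GRCm38.p6, printed 5′ to 3′ on the strand of the gene, with capitals for ACGTG or CACGT, the same motif on the other strand. *Bnip3* lies on the minus strand at chr7:138909507-138909756, *Ankrd37* on the minus strand at chr8:45999851-46000100 and *Slc16a3* on the plus strand at chr11:120948817-120949066.
Bnip3: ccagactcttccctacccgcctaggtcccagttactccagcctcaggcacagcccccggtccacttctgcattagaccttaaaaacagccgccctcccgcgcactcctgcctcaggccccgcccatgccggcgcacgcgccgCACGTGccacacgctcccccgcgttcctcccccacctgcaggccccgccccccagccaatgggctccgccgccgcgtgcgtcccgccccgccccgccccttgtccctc
Ankrd37: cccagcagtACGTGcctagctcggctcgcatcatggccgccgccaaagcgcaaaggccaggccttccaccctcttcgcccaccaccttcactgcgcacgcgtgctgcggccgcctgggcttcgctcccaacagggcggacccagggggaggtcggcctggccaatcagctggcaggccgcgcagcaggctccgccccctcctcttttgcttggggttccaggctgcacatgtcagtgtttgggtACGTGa
Slc16a3: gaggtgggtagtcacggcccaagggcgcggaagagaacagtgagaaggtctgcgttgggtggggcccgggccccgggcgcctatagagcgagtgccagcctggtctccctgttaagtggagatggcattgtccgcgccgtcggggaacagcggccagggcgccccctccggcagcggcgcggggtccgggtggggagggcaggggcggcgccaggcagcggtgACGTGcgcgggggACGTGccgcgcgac
Both strands were searched, and in *Bnip3* the motif overlaps itself as CACGTG, also called an E-box. Among HIF-1 targets 16 had an entry, and 9 of those windows (56.2%) held the motif, as did 8 of 18 glycolysis genes (44.4%). Of the 10126 genes tested with an entry, 21.7% held it, and of the 361 called higher 20.5%. A match in these letters is a description of the window and not of binding.

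Glycolysis genes were higher across the pathway, mostly by less than the call needs. Of 18 tested, 3 were called higher and 0 lower, 15 were higher by adjusted p alone, and the median was 0.58. *Slc16a3*, which exports lactate, was at 0.256 to 38.1 CPM in replicates 1 and 2 (median 1.79), and in replicate 3 LL2 WT had 43.7 CPM, *NRF2* KO 31.1 CPM and the *KEAP1* KO clones in order 4.37, 8.66 and 9.04 CPM. It was 2.33 ± 0.46 higher, with the lowest shift in LL2 WT (0.72), where replicate 1 was already at 38.1 CPM. *Pfkp*, a form of the enzyme that commits glucose to glycolysis, was at 41 to 125 CPM in replicates 1 and 2 and at 175 to 233 CPM in replicate 3, without overlap, and it was 1.25 ± 0.17 higher. *Slc2a1*, the main glucose importer of such cells, was at 47.6 to 135 CPM and 164 to 182 CPM, a difference of 1.06 ± 0.17 that fell short of the call after rescaling (0.98). *Ldha*, lactate dehydrogenase A, named after its values were seen, was at 1970 to 2720 CPM in replicates 1 and 2 and at 2140 to 2650 CPM in replicate 3 (0.10 ± 0.07).

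**Figure D3:**
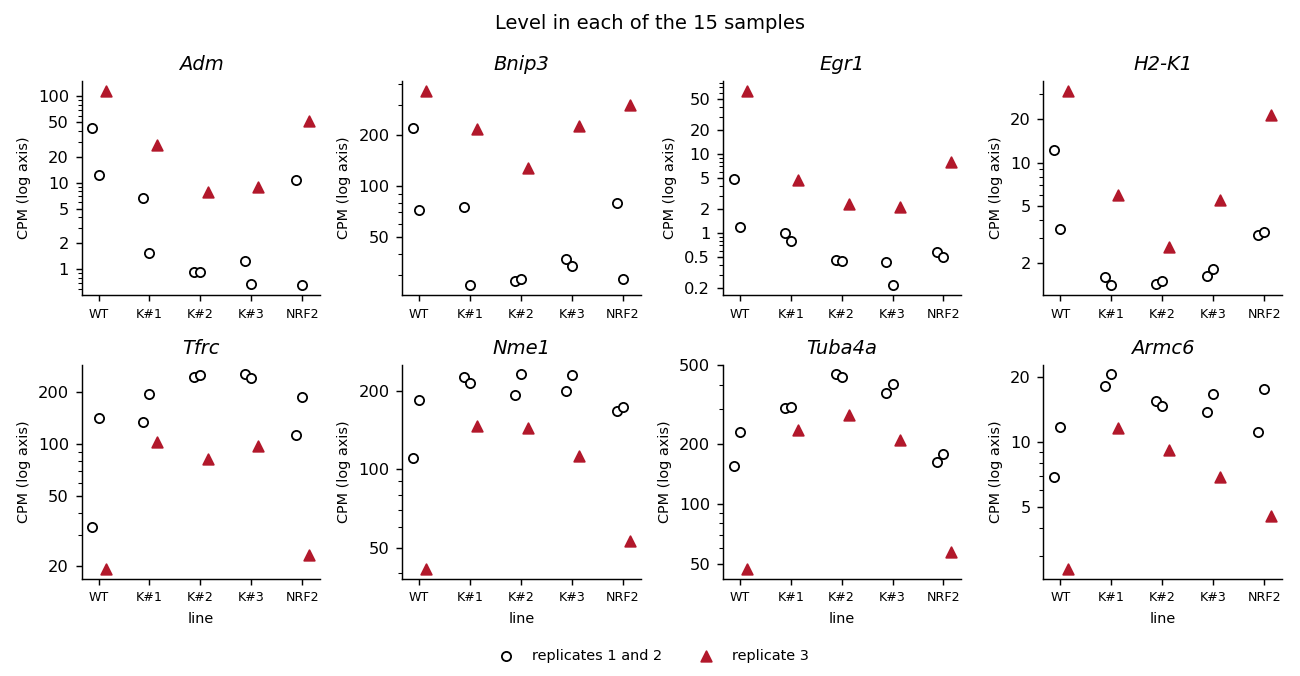
CPM of 8 genes (vertical axes, log scale) in each of the 15 samples, with the lines on the horizontal axes (K#1 to K#3 are the *KEAP1* KO clones). Open circles are replicates 1 and 2 and red triangles replicate 3, which is the highest of its line for *Adm*, *Bnip3*, *Egr1* and *H2-K1* and the lowest for *Tfrc*, *Nme1*, *Tuba4a* and *Armc6*.

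Immediate early genes held some of the highest differences, in unequal size between lines. Of 20 tested, 5 were called higher (*Fos*, *Fosb*, *Egr1*, *Egr3* and *Ier3*) and 0 lower, and 17 were higher by adjusted p alone, or 10 after quantile normalization. The median was 0.71, from 0.31 in *KEAP1* KO #2 to 1.1 in LL2 WT. The CArG box, which SRF binds, was in 2 of 15 of their windows (13.3%), in 1.94% of the genes called higher and in 1.22% of those tested. *Fos*, a subunit of the AP-1 factor, was at 0.213 to 2.45 CPM in replicates 1 and 2. In replicate 3 it was at 173 CPM in LL2 WT, against 5.83, 2.31 and 1.3 CPM in the *KEAP1* KO clones in order and 4.96 CPM in *NRF2* KO. LL2 WT replicate 3 was thus far above every other sample, and the shift was 6.87 (log2) there and 1.39 to 3.26 in the other lines. The difference over lines was 3.06 ± 0.62.

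*Egr1*, a zinc finger factor, was at 0.219 to 4.82 CPM in replicates 1 and 2, and at 63.6, 4.78, 2.38, 2.18 and 7.91 CPM in replicate 3 of LL2 WT, the *KEAP1* KO clones in order and *NRF2* KO. Its difference was 3.04 ± 0.37, and replicate 3 was above both others in all 5 lines. *Fosb*, a relative of *Fos*, was at 0.468 to 0.967 CPM in replicates 1 and 2, at 26.5 CPM in LL2 WT replicate 3 and at 1.41 to 2.2 CPM in replicate 3 of the other lines. *Myc*, named after its values were seen, is an immediate early gene as well as the driver of growth programs, and its level was 179 to 399 CPM in replicates 1 and 2 and 266 to 398 CPM in replicate 3 (0.37 ± 0.11). The ERK feedback genes and EGFR ligands, which growth signals also raise, had 0 of 15 called and 12 higher by adjusted p alone, with *Etv1* at 0.94 ± 0.13 and *Dusp6* at 0.74 ± 0.13. Without LL2 WT replicate 3, 4 immediate early genes were called and 14 passed by adjusted p.

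FOXO and MondoA targets were higher as a list. Of 11 tested, 4 were called, all 11 were higher by adjusted p alone (7 after quantile normalization), and the median was 0.87. *Txnip*, which limits glucose uptake, was at 35.3, 17.3 and 122 CPM in LL2 WT replicates 1, 2 and 3. The *KEAP1* KO clones in order had 43.7, 26.9 and 46.1 CPM in replicate 3 against 15.7 to 31.9 CPM in replicates 1 and 2, and *NRF2* KO had 50.1 CPM against 15.9 and 14.6 CPM. Its difference was 1.28 ± 0.22. *Pik3ip1* (1.64 ± 0.27), an inhibitor of PI3 kinase, *Ccng2* (1.41 ± 0.19), a cyclin of resting cells, and *Pdcd4* (1.13 ± 0.16), a brake on translation, were the other 3.

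Inflammatory and antigen presentation genes were higher in part. Of 22 NF-kB targets and cytokines, 7 were called higher and 0 lower, 15 were higher and 1 lower by adjusted p alone, and the median was 0.61. After quantile normalization 4 were called, and with a pseudocount of 1 CPM 2. *Cxcl1*, a chemokine for neutrophils, was at 5.66, 3.78 and 18.3 CPM in replicates 1, 2 and 3 of LL2 WT and at 3, 1.92 and 8.8 CPM in *NRF2* KO. In the *KEAP1* KO clones in order it was at 38.4, 42.6 and 68.6 CPM in replicate 3, against 14.6 to 30.5 CPM in replicates 1 and 2. The difference was 1.55 ± 0.14, with shifts of 1.21 to 1.96 in the 5 lines. Its relative *Cxcl5* was 1.44 ± 0.20 higher at levels of 0.216 to 4.79 CPM in replicate 3. *Il33*, an alarm cytokine kept in the nucleus, was at 14.3, 3.01 and 45.3 CPM in LL2 WT and at 0.88, 0.21 and 7.03 CPM in *NRF2* KO, while all *KEAP1* KO samples were at or below 1.03 CPM. It was 1.91 ± 0.50 higher.

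Of 11 MHC class I genes, 2 were called higher, 9 were higher and 1 lower by adjusted p alone, and the median was 0.48. *H2-K1*, a class I heavy chain that shows peptides to T cells, was at 3.44 CPM in replicate 2 and 31.7 CPM in replicate 3 of LL2 WT, with replicate 1 between them, and at 3.12, 3.31 and 21.6 CPM in *NRF2* KO. The *KEAP1* KO clones in order had 5.93, 2.6 and 5.52 CPM in replicate 3 and 1.4 to 1.81 CPM in replicates 1 and 2. Its difference was 1.86 ± 0.28, and 22.8% of its stretches of 31 bases are shared with other genes, *H2-D1* most. *Psmb8*, a subunit of the immunoproteasome, was 1.54 ± 0.25 higher at levels of 0.456 to 3.08 CPM in replicate 3. Its partner subunit *Psmb10* was lower, by −0.92 on the log2 scale, and passed by adjusted p alone. Interferon-stimulated genes had 0 of 26 called, 12 higher by adjusted p alone in the deposited values, and 4 higher and 2 lower after quantile normalization.

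Extracellular matrix genes had 7 of 24 called higher (*Mmp13*, *Mmp9*, *Fn1*, *Thbs1*, *Col6a1*, *Timp3* and *Col3a1*), 12 higher and 1 lower by adjusted p alone, and a median of 0.50, with 3 called after quantile normalization. *Fn1*, fibronectin, was at 223, 119 and 367 CPM in LL2 WT and at 126, 102 and 263 CPM in *NRF2* KO. In the clones *KEAP1* KO #1, #2 and #3 replicate 3 had 117, 31.7 and 44.5 CPM, above 97.4 and 62, 14.3 and 13.6, and 11.6 and 12.6 CPM. The difference was 1.21 ± 0.18. Its sets overlapped over lines but not within any line. *Mmp13*, a collagenase, was 1.43 ± 0.27 higher. Of 30 genes of the ATF4 response to amino acid and other stress, 6 were called higher, led by *Vldlr*, a lipoprotein receptor (2.02 ± 0.32), and *Aldh1l2*, a folate enzyme of the mitochondrion (1.29 ± 0.22), with a list median of 0.33, and 3 were called after rescaling. *Asns*, the asparagine synthetase often used to mark this response, was at 0.30 and did not pass.

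Several lists had few calls. Of 15 clock genes 2 were called, *Bhlhe40* (1.77 ± 0.23) and *Bhlhe41* (1.09 ± 0.20), which are repressors that low oxygen also raises. Of 19 p53 targets and CDK inhibitors 1 was called, *Gadd45a* (1.18 ± 0.21), a stress gene of growth arrest. YAP-TEAD targets, which respond to cell density and shape, had 0 of 23 called and 10 higher and 1 lower by adjusted p alone, with *Ccn1* at 0.84 ± 0.21 and *Gadd45b* at −0.65 ± 0.16. Metallothionein and glucocorticoid-responsive genes had 0 of 8 called and 7 higher by adjusted p alone, *Sgk1* at 0.76 ± 0.08 and *Errfi1* at 0.67 ± 0.08. NRF2 targets, the program of the knockouts, had 0 of 25 called, 4 higher and 5 lower by adjusted p alone, and a median of 0.08. *Gstm1*, a glutathione transferase, was at 0.80 ± 0.12 and *Abcc1*, an exporter, at 0.50 ± 0.06.

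Among the named genes that belong to no list, *Selenbp1*, a selenium-binding methanethiol oxidase, had the highest difference of the genes the naming rule took. Its 3 replicates were at 74.1, 8.81 and 168 CPM in LL2 WT and at 4.14, 0.81 and 37.1 CPM for *NRF2* KO. The *KEAP1* KO clones in order had 5.5, 0.872 and 21.7 CPM, 0.703, 0.344 and 10.6 CPM, and 0.949, 1.12 and 21 CPM. Replicate 3 was the highest in each line, and its difference was 3.71 ± 0.54, although 61.1% of its stretches of 31 bases are shared with *Selenbp2*. *Espn*, an actin-bundling protein (2.52 ± 0.28), *Rgs11*, a regulator of G protein signalling (2.37 ± 0.31), *Fgf11*, an intracellular growth factor homolog (2.25 ± 0.37), and *Mgarp*, a mitochondrial protein (2.22 ± 0.45), followed. *Krt19*, a keratin, was at 0.188 to 2.91 CPM in replicates 1 and 2 and at 1.28 to 5.33 CPM in replicate 3 (2.3 ± 0.48), and it was the 1 called of 6 epithelial markers tested. *Scd2* and *Scd1*, which put double bonds into fatty acids, were, like all 15 fatty acid synthesis genes, not called but varied little between lines, with shifts of 0.69 to 0.94 and of 0.63 to 1.07.

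Genes called lower in replicate 3 were fewer, and single lists carried small differences in 1 direction. Of 20 ribosome biogenesis genes and MYC targets, 0 were called and 19 were lower by adjusted p alone, with a median of −0.53. *Bop1*, which matures the large ribosomal subunit, was at 56.6 to 99.7 CPM in replicates 1 and 2 and at 21.7, 55.1, 73.9, 56.4 and 35.9 CPM in replicate 3 of LL2 WT, the *KEAP1* KO clones in order and *NRF2* KO. It differed by −0.88 ± 0.14, and *Rrp12*, another assembly factor, by −0.89 ± 0.16. Of 34 proteasome genes 0 were called and 32 were lower by adjusted p alone, with a median of −0.39. *Psmc5*, an ATPase of its regulatory particle, was at 228 to 285 CPM in replicates 1 and 2 and at 108 to 214 CPM in replicate 3, without overlap (−0.59 ± 0.10). The 79 ribosomal protein genes did not share this direction, and their median of 0.12 was near that of all genes (0.13). By adjusted p alone 30 were higher and 0 lower in the deposited values, where 30.6% of all genes tested were higher. After rescaling 6 were higher and 5 lower.

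Of 24 genes of S phase and DNA replication, 0 were called and 19 were lower by adjusted p alone, with a median of −0.41. The median was −1.14 in LL2 WT and −0.15 to −0.37 in the other 4 lines. *Tyms*, which makes thymidylate, was at 117, 139 and 36.7 CPM in LL2 WT replicates 1, 2 and 3 and at 160, 139 and 76.2 CPM in *NRF2* KO. In the *KEAP1* KO clones in order it was at 103, 80.2 and 66.9 CPM in replicate 3 and at 97.6 to 133 CPM in replicates 1 and 2. It differed by −0.81 ± 0.16 and *Ccne1*, the cyclin of entry into S phase, by −0.77 ± 0.13. Genes of G2 and mitosis had 1 of 20 higher and 8 lower by adjusted p alone, *Birc5* at −0.50 ± 0.08 and *Cdc20* at −0.44 ± 0.09. Replication-dependent histone genes, whose transcripts mostly lack poly(A) tails and are poorly captured by poly(A) selection, had 2 of 64 called higher and 2 lower, and 0 higher and 7 lower after quantile normalization.

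Of 81 nuclear-encoded respiratory chain genes 5 were higher and 46 lower by adjusted p alone, with a median of −0.20, and 2 were called higher, *Cox6a2* (1.66 ± 0.36) and *Cox7a1* (1.2 ± 0.28), which are muscle forms of cytochrome oxidase subunits at 4.41 CPM or less here. Of the 13 genes encoded in the mitochondrion 0 were higher and 1 was lower by adjusted p alone, *mt-Cytb* (−0.23 ± 0.08). Heat shock genes had 12 of 16 lower and 2 higher by adjusted p alone, with 1 called higher, *Hspb1* (1.22 ± 0.37, at 0.894 CPM or less). Of 20 genes of ER chaperones and the unfolded protein response 4 were higher and 8 lower by adjusted p alone, with *Calr*, a chaperone, at −0.66 ± 0.09. Lysosome genes had 8 higher and 8 lower of 30.

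Of genes called lower, *Tfrc*, the transferrin receptor that brings iron into the cell, had the largest difference of those the naming rule took. Its 3 replicates were at 33.2, 141 and 19.1 CPM in LL2 WT and at 112, 187 and 23 CPM for *NRF2* KO. The *KEAP1* KO clones in order had 133, 195 and 102 CPM, 242, 248 and 82.4 CPM, and 251, 240 and 96.9 CPM. Replicate 3 was the lowest of each line, by −1.61 ± 0.31 on the log2 scale, while LL2 WT replicate 1 lay within the range of replicate 3. *Nme1*, a nucleoside diphosphate kinase, was at 111 to 231 CPM in replicates 1 and 2 and at 41.5, 147, 144, 113 and 53.3 CPM in replicate 3 of LL2 WT, the *KEAP1* KO clones in order and *NRF2* KO (−1.10 ± 0.18). Of its stretches 11.8% are shared with other genes, mostly the readthrough gene *Gm20390*.

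*Tuba4a*, an alpha tubulin, was at 155 to 450 CPM in replicates 1 and 2 and at 46.9, 235, 280, 209 and 57.4 CPM in replicate 3 in the same order (−1.10 ± 0.19), and 38.4% of its stretches are shared, mostly with *Stk16*. *Angptl4*, a secreted inhibitor of lipoprotein lipase, was at 0.418 to 2.97 CPM and at 0.133 to 0.598 CPM (−1.47 ± 0.30). It is raised by PPAR factors as well as by HIF-1, and was the 1 called of 9 PPAR targets and lipid droplet genes. *Sco2*, which delivers copper to cytochrome oxidase, differed by −1.16 ± 0.18, with 89.7% of its stretches shared, mostly with *Tymp*. The other genes of the rule were *Tnnt2* (−1.42), *Tmem190* (−1.26), *Armc6* (−1.18), *Lbhd1* (−1.05), *Tmem238* (−1.02) and *Acyp2* (−1.02), with *Tnnt2* listed at 0 in replicate 3 of LL2 WT and *NRF2* KO.

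**Figure D4:**
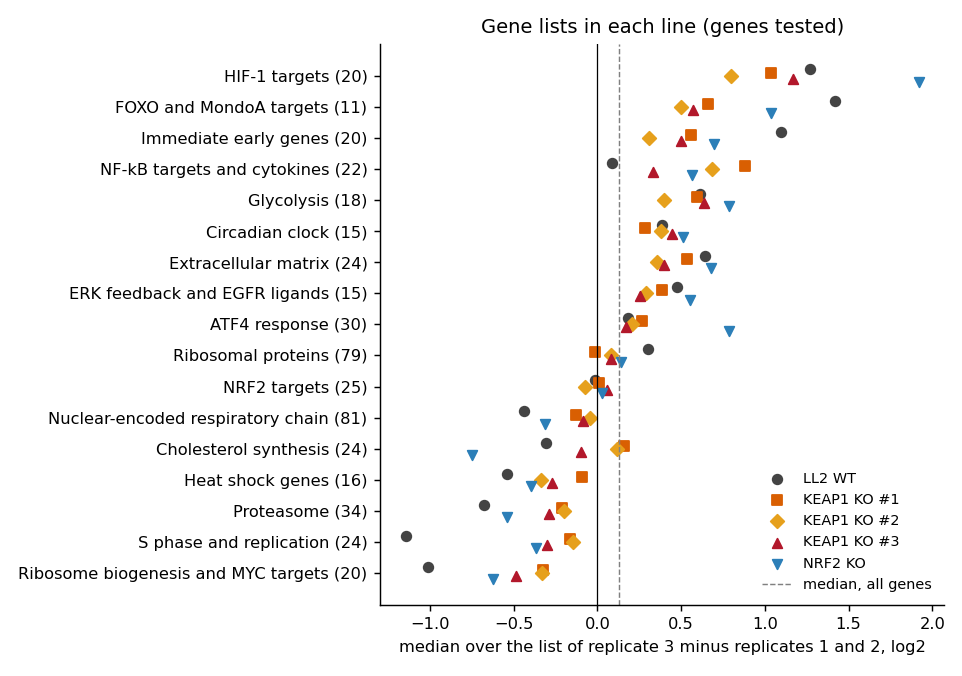
Median over each of 17 gene lists (number of genes tested in brackets) of replicate 3 minus replicates 1 and 2 (horizontal axis, log2) in each of the 5 lines, 1 marker per line, with the median of all genes as a dashed line at 0.13. HIF-1 targets lie at 0.80 to 1.92, and the lowest points are those of LL2 WT for S phase genes (−1.14) and ribosome biogenesis genes (−1.01).

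Replicates 1 and 2 also differed from each other, in a comparison that the choice of replicate 3 did not use. Of the 591 genes called higher, replicate 1 was above replicate 2 for 84.3% in LL2 WT (56% of all genes tested) and for 70.1% in *NRF2* KO (49.7%). For *KEAP1* KO #1, #2 and #3 the shares were 73.6%, 53.5% and 38.2%, against 50.6%, 52.7% and 47.3% of all genes tested. The median of replicate 1 minus replicate 2 over the 591 genes was 0.79 (log2) in LL2 WT, 0.30 in *NRF2* KO and, for the *KEAP1* KO clones in order, 0.40, 0.02 and −0.06. These are values of 1 sample against another in each line and have no replicate check.

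Lists differed in how replicates 1 and 2 lay. HIF-1 targets were higher in replicate 1 for 19 of 20 genes in LL2 WT, 18 in *NRF2* KO and, for the *KEAP1* KO clones in order, 17, 13 and 12. Immediate early genes were higher in replicate 1 for 17 of 20 in LL2 WT, 6 in *NRF2* KO and 9, 12 and 5 in the *KEAP1* KO clones in order. Of the 20 ribosome biogenesis genes, replicate 1 was higher for 0 in LL2 WT, 1 in *NRF2* KO and 0, 13 and 11 in the *KEAP1* KO clones in order. Cholesterol synthesis genes were higher in replicate 1 for 1 of 24 in LL2 WT and in *NRF2* KO, and for 22, 13 and 14 in the *KEAP1* KO clones in order.

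Each line was also left out in turn, and the genes called in the other 4 were counted by direction in it. Genes called higher in the other lines had replicate 3 above both others in the line held out for 500 of 582 in LL2 WT (85.9%, against 41.6% of all genes) and 441 of 497 in *NRF2* KO (88.7%, against 51.9%). For *KEAP1* KO #1, #2 and #3 it was 550 of 701 (78.5%, against 49.6%), 515 of 585 (88%, against 55.2%) and 465 of 533 (87.2%, against 56%). Genes called lower had replicate 3 below both others for 22 of 40 in LL2 WT (55%, against 39.5% of all genes) and 21 of 37 in *NRF2* KO (56.8%, against 31.3%). For the *KEAP1* KO clones in order it was 32 of 60 (53.3%, against 23.5%), 36 of 55 (65.5%, against 29.8%) and 28 of 54 (51.9%, against 26.5%). The split had been chosen with all 5 lines in view, the line held out included, which largely fixes high shares in advance. These counts are therefore a description and no test.

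Whether the shift of replicate 3 differed between the *KEAP1* KO clones and the other lines was tested, since that contrast did not choose the samples. The shift of the 3 *KEAP1* KO clones was set against that of LL2 WT and *NRF2* KO in limma's model across all genes. Of 14652 genes, 39 were called with a higher shift in the *KEAP1* KO clones (0.266%) and 19 with a lower one (0.13%), and by adjusted p alone 649 (4.43%) were higher and 73 (0.498%) lower. The triplicates are described as biologic without saying how they were made separate, so the spread between these samples may be technical in part. The p-values rest on the spread of all samples around the model, replicates 1 and 2 included. Differences in shift between lines of the same set are part of that spread, pooled with the differences between replicates 1 and 2. Each line has only its own replicate 3, so the p-values do not measure the spread of the shift between lines by itself. After rescaling 12 and 15 genes were called, and without LL2 WT replicate 3 the counts were 2 and 4. The SD of the shift over the 14652 genes was 0.802 in LL2 WT, 0.753 in *NRF2* KO and 0.614 to 0.724 in the *KEAP1* KO clones.

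Of the 24 cholesterol synthesis genes, 5 were called with a higher shift in the *KEAP1* KO clones (*Acat2*, *Tm7sf2*, *Fdps*, *Mvk* and *Nsdhl*) and 7 passed by adjusted p alone, which became 1 and 2 after rescaling. Of 31 alternatives, the call was kept under 24 for *Mvk*, 15 for *Tm7sf2*, 9 for *Acat2*, and 7 each for *Fdps* and *Nsdhl*. Replicates 1 and 2 were also unequal, with replicate 1 the higher for 1 of the 24 genes in LL2 WT and in *NRF2* KO. *Mvk*, mevalonate kinase, was at 19.7 and 22.8 CPM in replicates 1 and 2 of LL2 WT, with a shift of −1.04 (log2) in replicate 3, and it was at 23.2, 24.9 and 14.6 CPM in the replicates of *NRF2* KO. The clones *KEAP1* KO #1, #2 and #3 had 16, 12 and 15.1, 9.88, 7.92 and 11.7, and 11.6, 11.6 and 13 CPM. Replicate 3 was thus the lowest of its line in LL2 WT and *NRF2* KO, and the highest in *KEAP1* KO #2 and #3. The shifts differed by 1.11 ± 0.18 (SE, limma adjusted p = 0.0156), and by 1.03 after rescaling (adjusted p = 0.0274).

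*Fdps*, which makes farnesyl diphosphate, was at 110 CPM in replicate 3 of LL2 WT against 144 and 185, and at 67.6 CPM in *NRF2* KO against 154 and 177. In the *KEAP1* KO clones in order it was at 112 CPM against 125 and 77, 82.3 against 68.3 and 67.1, and 112 against 115 and 118. The shifts differed by 1.07 ± 0.25 (limma adjusted p = 0.0383), a call lost after rescaling (adjusted p = 0.0705). The same held for *Acat2* (1.17 ± 0.27) and *Nsdhl* (1.12 ± 0.28), which after rescaling gave limma adjusted p-values of 0.071 and 0.0778. *Tm7sf2*, a sterol reductase, was at 8.88 and 11.7 CPM in replicate 3 of *KEAP1* KO #2 and #3 against 3.44 to 5.17 CPM in their replicates 1 and 2, while replicate 3 lay within 1 CPM of both others in LL2 WT and *NRF2* KO. Its call was also lost after rescaling, where the difference was 0.96.

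**Figure D5:**
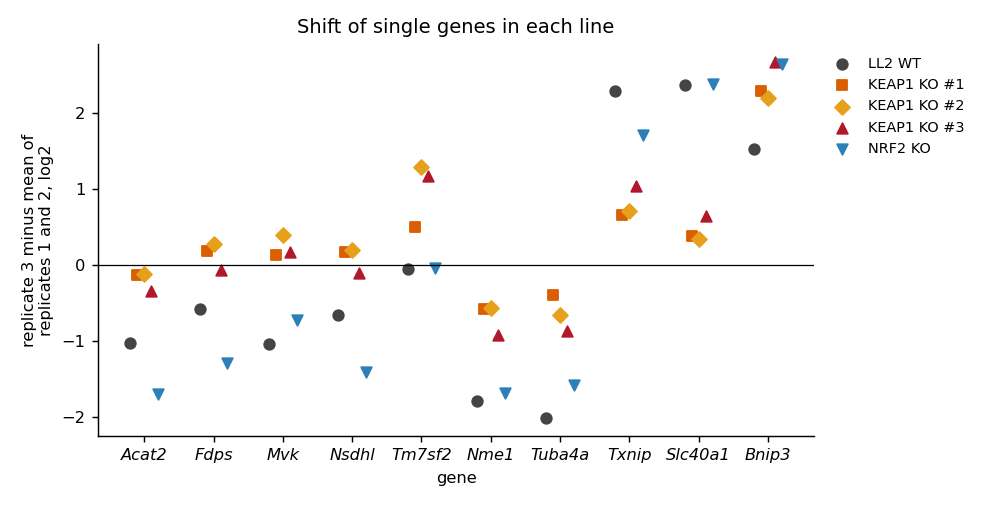
Shift of replicate 3 from the mean of replicates 1 and 2 (vertical axis, log2) for 10 genes on the horizontal axis, 1 marker per line. For *Mvk* and *Nme1* the LL2 WT and *NRF2* KO shifts lie below those of the 3 *KEAP1* KO clones, and for *Txnip* and *Slc40a1* above them, while *Bnip3*, which was not called in this comparison, is mixed.

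For *Nme1* the shift was −1.78 and −1.68 in those lines and −0.58, −0.56 and −0.92 in the *KEAP1* KO clones, a difference of 1.05 ± 0.21 (limma adjusted p = 0.0272, and 0.055 after rescaling). For *Tuba4a* it was −2.01 and −1.57 against −0.39, −0.66 and −0.86 (1.15 ± 0.20, limma adjusted p = 0.0197). By adjusted p alone, 21 of 34 proteasome genes, 27 of 81 nuclear-encoded respiratory chain genes, 7 of 20 genes of G2 and mitosis and 4 of 20 ribosome biogenesis genes had a higher shift in the *KEAP1* KO clones. After rescaling these counts were 5, 11, 1 and 0, and without LL2 WT replicate 3 both the proteasome and the respiratory chain had 0. HIF-1 targets had 0 genes with a higher shift and 1 with a lower one, and immediate early genes had 0 of either by limma's adjusted p, with *Fos* at −3.34 (adjusted p = 0.0507) and *Egr1* at −1.85 (adjusted p = 0.0763). The count of immediate early genes with a lower shift moved with the processing. It was 2 with a mean of at least 1 CPM, 1 after quantile normalization and 0 after rescaling.

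The lower shifts in the *KEAP1* KO clones included *Txnip* (−1.20 ± 0.30, limma adjusted p = 0.0469, and 0.0566 after rescaling) and *Slc40a1*, ferroportin, the exporter of iron. *Slc40a1* was at 0.458, 0.473 and 2.84 CPM in LL2 WT and at 0.137, 0.18 and 1.25 CPM in *NRF2* KO, against 2.39, 0.851 and 2.26 CPM in replicate 3 of the *KEAP1* KO clones in order and 0.393 to 2.72 CPM in their replicates 1 and 2. Its difference was −1.92 ± 0.46 (limma adjusted p = 0.0416, and 0.0537 after rescaling). *Pde8b*, a cAMP phosphodiesterase, gave −1.69 ± 0.32.

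Since replicate 3 formed a shared offset, each knockout line was compared with LL2 WT without and with a term for it. The term raised the number of genes called in *NRF2* KO from 68 (0.464%) to 173 (1.18%). For *KEAP1* KO #1, #2 and #3 it went from 1251 (8.54%) to 1595 (10.9%), from 2006 (13.7%) to 2287 (15.6%) and from 1967 (13.4%) to 2265 (15.5%). Every gene called without the term was also called with it in these 4 comparisons, which share the LL2 WT samples. In *NRF2* KO the 173 were 44 higher and 129 lower, against 13 and 55 without the term. Each line holds a replicate 3, so the term leaves the line differences as they were. It was chosen on these values and lowers the spread around the model, which largely fixes a rise in calls in advance. The counts are therefore a description and no test.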

How the data were processed

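The authors deposited 1 table of CPM per gene symbol for 15 samples, made with Kallisto (0.48.0, GRCm38.p6 cDNA per the methods, GRCm39 per the submitters' processing notes) and scaled to 1 fixed total per sample. The CPM have no common step, so read depth per sample is unknown, no counting interval can be given, and precision is shown by the spread between samples. The 35880 symbols were reduced to 14652 with a summed CPM of at least 3, leaving out 1 entry with no symbol (0.0214% to 0.049% of a sample). Values were taken as log2(CPM + 0.1), which understates changes of low genes, and fitted with limma 3.58.1 (eBayes with trend, R 4.3.3, 2-sided, Benjamini-Hochberg) with line and replicate 3 as terms, after a test on simulated data. The samples set apart, the 38 gene lists and the tests were chosen with earlier results of these data known, and the histone list was amended to newer symbols. Genes were named by rule: the 12 largest rises and falls (11 qualified) among called genes with a mean of at least 1 CPM, a gene name that is not a predicted or clone name and replicate 3 beyond both others in all 5 lines, up to 4 called members of each list or else the 2 largest differences, and the 5 largest differences of the shift in each direction. All other names were chosen after their values were seen. Sequence shared between genes was counted as stretches of 31 bases in GENCODE transcripts, for 113 of 117 named genes. Markers of the list of nuclear-retained RNAs were not tested, with 0 in the table. Alternatives were other pseudocounts (0.5 and 1 CPM), filters and scalings, a replicate block, no trend, and leaving out each sample, line or replicate number. The result of the list of TGF-beta and BMP targets is not reported here.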

Additional observations from a re-analysis of the deposited data

Results flagged for a closer look

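The shift of replicate 3 differed between the *KEAP1* KO clones and the other lines, by the test of that difference in limma's model, for the 18 named genes that follow, on the log2 scale. The call was kept under 6 (*Slc40a1*) to 30 (*Gm5537*) of 31 alternatives. Higher shifts in the *KEAP1* KO clones were found for *Gm6055* (5.23), *Gm19253* (3.35), *Gm12164* (3.22), *Ccnb1ip1* (2.57), *Gm7862* (2.40), *Acat2* (1.17), *Tuba4a* (1.15), *Nsdhl* (1.12), *Mvk* (1.11), *Fdps* (1.07), *Nme1* (1.05) and *Tm7sf2* (1.04). Lower shifts were found for *Gm29216* (−9.31), *Gm5537* (−6.87), *Slc40a1* (−1.92), *Gm7285* (−1.86), *Pde8b* (−1.69) and *Txnip* (−1.20).

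Several of the differences of largest size belonged to genes that share much of their sequence with other genes. *Gm5537* was at 126 CPM in LL2 WT replicate 3 and 23.5 CPM in *NRF2* KO replicate 3 and at 2.45 CPM or less in the other 13 samples, and all its stretches of 31 bases also occur in *Pgk1*. For *Gm29216* that share was 97.2% with *mt-Co1*, and for *Gm6055* 91.1% with *Map1lc3b*. Shared stretches also made up 66.8% of *Gm7862* (mostly *Hmgn1*), 62.4% of *Gm12164* (mostly *Ftl2-ps*), 48.5% of *Gm7285* (mostly *Rps7*), 43.7% of *Acat2* (*Acat3*) and 38.4% of *Tuba4a* (mostly *Stk16*). The values of these 8 genes are uncertain for that reason. *Gm19253* and *Ccnb1ip1*, also among the largest differences, shared less, at 13.4% and 12.4% of their stretches.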

How the results depend on the processing

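Of the 59 genes called in replicate 3 and named by rule for that comparison or from a list, 27 kept the call under all 30 alternatives. Called genes named after their values were seen, or only for the difference of the shift, were not in this count. Genes called higher and lower (591 and 40) became 166 and 14 with a pseudocount of 1 CPM, 283 and 22 with 0.5 CPM, 359 higher with a mean of at least 1 CPM, and 250 and 126 after quantile normalization. Leaving out samples, lines or a number gave 360 to 770 higher and 24 to 61 lower, with 360 and 24 without replicate 2 and 61 lower without replicate 1. *Hba-a1*, an erythroid marker not called at 0.74, ranged from −0.078 without *KEAP1* KO #2 replicate 3 or that line to 1.28 without *KEAP1* KO #1 replicate 3. The difference of the shift (39 and 19) was less stable, with 29 and 33 lower at pseudocounts of 1 and 0.5 CPM, 18 higher without a filter, 12 higher by median ratios, 35 lower by quantiles, and 5 and 3 without a trend. Leaving out samples or lines gave 0 to 165 higher and 0 to 69 lower, with 61 and 69 without LL2 WT replicate 1, 165 and 44 without *NRF2* KO replicate 3, 6 and 2 without *KEAP1* KO #2 replicate 3, 2 and 4 without LL2 WT replicate 3, 5 and 11 without the line LL2 WT, 152 and 40 without *NRF2* KO, 0 and 1 without *KEAP1* KO #2 or #3, 31 lower without replicate 1, and 0 and 0 without replicate 2, where limma gave 2133 genes at an unadjusted p under 0.05. Counts also moved by over 1.5 times without LL2 WT replicate 2 (19 higher), *KEAP1* KO #1 replicate 2 (23 higher), *KEAP1* KO #2 replicate 1 (14 and 4) or 2 (11 and 4), and *KEAP1* KO #3 replicate 1 (19 and 11), 2 (9 lower) or 3 (14 and 8). Proteasome genes with a higher shift by adjusted p ranged from 0 to 27 and cholesterol synthesis genes from 0 to 11. The cause of these moves was not tested. A line comparison without the replicate 3 term moved most in *NRF2* KO, to 68 genes. With the replicate number as a replicate block, 602 and 42 genes were called in replicate 3, 42 and 27 in the difference of the shift, and 1597, 2288, 2270 and 179 in the line comparisons. Deviations of samples with equal numbers had a median r of 0.0569 for number 1 (−0.0221 to 0.278), 0.274 for number 2 (0.126 to 0.529) and 0.461 for number 3 (0.422 to 0.631). Not every pair was over 0.1, and no label ties equal numbers to a shared culture or day. The numbers were therefore not taken to pair the samples. The deviations of a line sum to 0, and those of number 3 follow its shift, so this r cannot settle whether samples pair. The methods give an average depth but not that of each sample, and genes near 1 CPM or below rest on fewer reads than higher ones.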
